A study of Ovis aries with 32 samples.

Results

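Potassium channel genes were followed across 4 tissues and both diets of a feeding trial in Tan sheep. The set held 67 of the 30722 genes of the expression table. It took every gene whose symbol begins with KCNA, KCNB, KCNC, KCND, KCNH, KCNJ, KCNK, KCNMA, KCNMB, KCNN, KCNQ or KCNT followed by a digit. One KCNJ gene and the KCNAB auxiliary subunits were not members. RNA-seq was run on 32 libraries, 4 from each of 8 groups. The groups were the tissues labelled hypothalamus, pituitary, liver and tail fat, each from sheep on the control diet (CON) and on the succinic acid diet (SA). All sheep were male and 3 months old. CON sheep ate a basal pelleted feed, and SA sheep ate the same feed with succinic acid added at 1% of dry matter, for 60 days after 10 days of adaptation. Each diet had 12 sheep. The labels do not say which sheep gave which library, so the p-values measure the spread between these libraries.

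Potassium channels let potassium ions cross the cell membrane, and so set the resting potential and shape electrical signals. The voltage-gated families (KCNA, KCNB, KCNC, KCND, KCNH, KCNQ) open on depolarisation and repolarise the action potential. The inward rectifiers (KCNJ) include the G protein-gated channels of neurons, the potassium-buffering channels of glia and the ATP-sensitive channels. The tandem-pore channels (KCNK) carry leak current. The calcium-activated channels (KCNMA1 with its KCNMB subunits, and KCNN) and the sodium-activated channels (KCNT) couple firing to ions that enter the cell.

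Values are in TPM, which scale a gene's reads by its length and by the total of its library. Tests were run with limma on log2(TPM + 1), and every difference below is on that scale, which understates the change of genes at low TPM. A gene was tested where at least 4 libraries of the fit reached 1 TPM. It passed at an adjusted p under 0.05 (Benjamini-Hochberg over all genes tested, two-sided). The sequencing depth behind the values is unknown.

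The tissue labels were checked against marker genes. In libraries labelled hypothalamus, 7 striatal neuron markers summed to 2199 to 4015 TPM, and 6 hypothalamic peptide genes to 5.35 to 14.2 TPM. In libraries labelled pituitary, 6 anterior pituitary markers summed to 2.88 to 5.93 TPM, with CGA and FSHB listed at 0, while 7 neuron markers summed to 1162 to 3863 TPM. Both sets of libraries held neuronal transcripts, with the defining hormone genes of their labels absent or low, and they are called hypothalamus-labelled and pituitary-labelled here. Liver libraries on the control diet had 20.2% to 27.9% of their TPM in mitochondrial transcripts and those on succinic acid had 52.5% to 71.0%. The CON and SA shares were 46.6% to 56.1% and 49.1% to 54.2% in hypothalamus-labelled tissue and 22.6% to 70.8% and 25.7% to 50.7% in tail fat. In pituitary-labelled libraries the share was 41.3% to 45.0% in CON and 36.7% to 68.8% in SA, the highest being that of SA 4. TPM sum to a fixed total, so each comparison was repeated with mitochondrial and ribosomal RNA genes removed and under quantile normalization, which gives all libraries 1 distribution. In bulk tissue, fewer cells of a type and less RNA per cell cannot be told apart.

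More of the channel genes were measured in the brain libraries than in liver or tail fat. In CON, 46 of the 67 averaged 1 TPM or more in hypothalamus-labelled tissue and 52 in pituitary-labelled tissue, against 12 in liver and 10 in tail fat. The levels of all members summed to 658 ± 32.3 TPM in hypothalamus-labelled, 793 ± 112 TPM in pituitary-labelled, 73.2 ± 17.6 TPM in liver and 54.3 ± 18.8 TPM in tail fat CON libraries (mean ± SD, n = 4 each). KCNA7, KCNA10, KCNH6, KCNJ1, KCNJ14, KCNJ15, KCNK15, KCNK16, KCNK17 and KCNK18 reached 1 TPM in none of the 32 libraries. KCNA10 and KCNK18 were listed at 0 in all of them. These 10 and KCNK9 were the 11 members that entered no test.

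**Figure D1:**
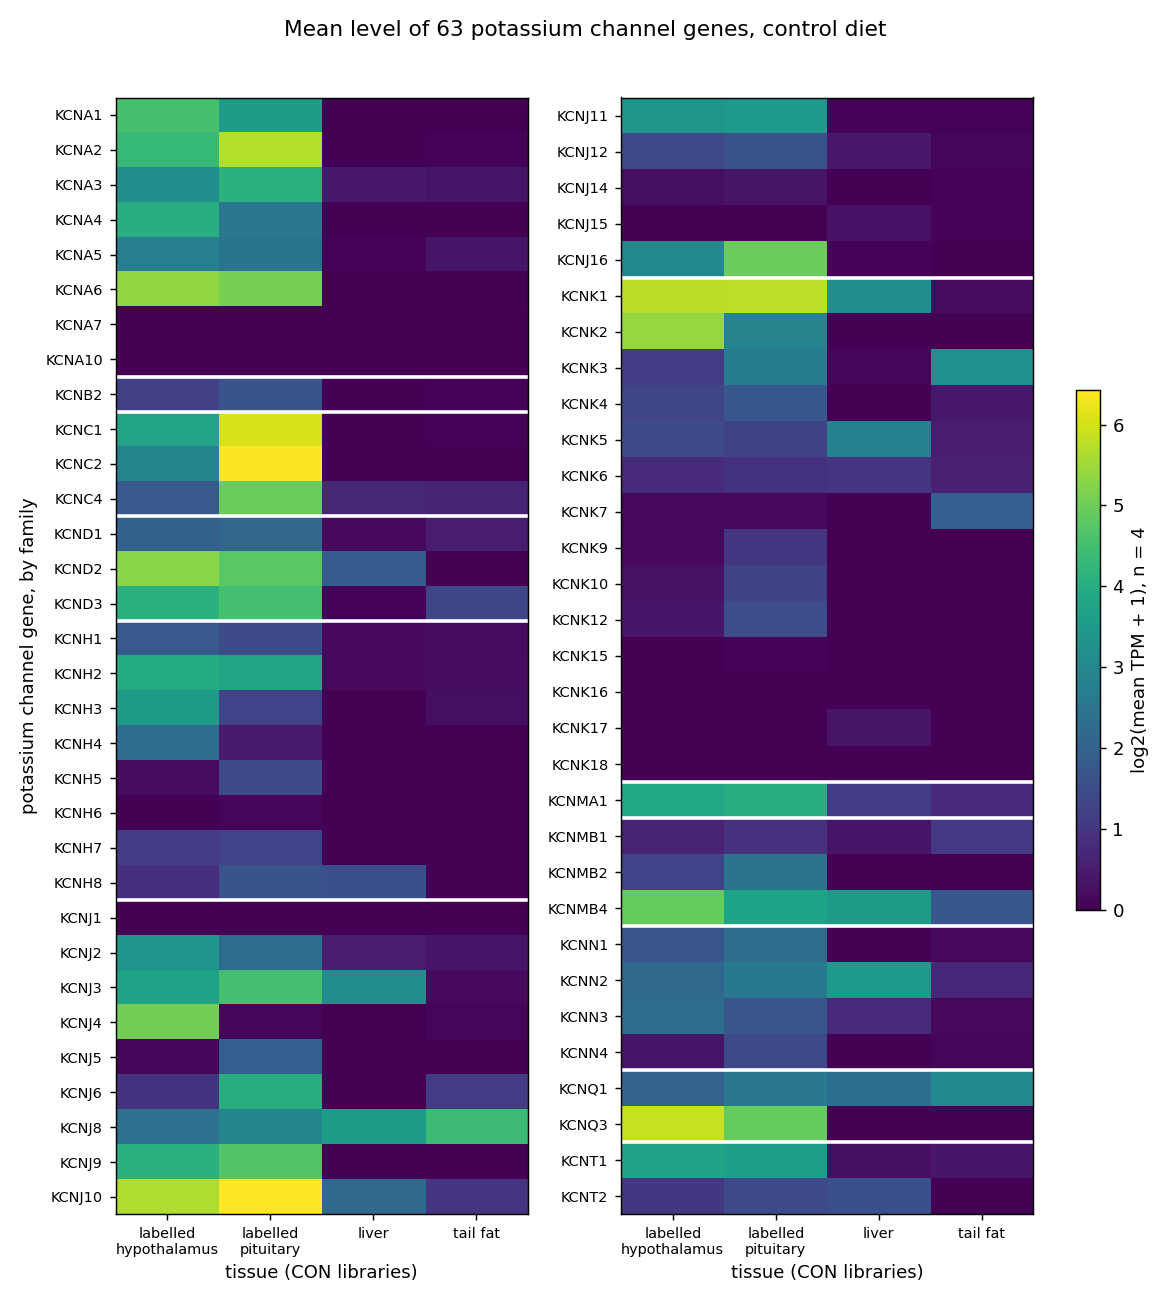
Mean level of 63 of the 67 potassium channel genes in the CON libraries (n = 4 per tissue), as colour on a log2(mean TPM + 1) scale, with genes in rows by family and tissues in columns. Of the genes drawn, 42 and 48 average 1 TPM or more in the brain columns, and 12 and 8 in liver and tail fat.

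The channels with the highest means differed in part between the tissues, and some led in more than 1 of them. In hypothalamus-labelled CON libraries among the highest means were those of KCNQ3 (57.8 TPM), KCNK1 (53.5 TPM), KCNJ10 (49.6 TPM) and KCNK2 (41.8 TPM). KCNQ3 is a subunit of the M-channel that muscarinic receptors close, KCNJ10 is the potassium-buffering channel of glia, KCNK1 is a weak leak channel, and KCNK2 is a leak channel opened by stretch and lipids. In pituitary-labelled CON libraries KCNJ10 (85.0 TPM), KCNC2 (82.1 TPM), KCNC1 (64.2 TPM), KCNK1 (53.7 TPM) and KCNA2 (51.2 TPM) led. KCNC1 and KCNC2 are channels of fast-spiking neurons, and KCNA2 lies along axons.

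In liver the leaders were KCNJ8 (10.5 TPM), KCNMB4 (10.4 TPM), KCNN2 (9.86 TPM), KCNK1 (7.90 TPM) and KCNJ3 (7.81 TPM). KCNJ8 is the pore of vascular ATP-sensitive channels, KCNMB4 a subunit of large-conductance calcium-activated channels, KCNN2 a small-conductance calcium-activated channel and KCNJ3 a G protein-gated subunit. In tail fat KCNJ8 led with 20.1 TPM, which was 37.0% of the summed level of the set. KCNK3, an acid-sensitive leak channel, had 8.31 TPM, KCNQ1, a voltage-gated channel that pairs with KCNE subunits, 6.94 TPM, KCNK7 2.82 TPM and KCNMB4 2.35 TPM.

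The families weighed differently in the brain tissues. KCNC members made up 4.17% of the summed level in hypothalamus-labelled and 24.3% in pituitary-labelled CON libraries, and KCNQ members 16.6% and 7.71%. The KCNJ share was 21.6% and 25.6%, and the KCNA share 16.8% and 15.3%. In liver and tail fat the KCNJ family had the largest share, 31.5% and 42.3%, followed by KCNK with 20.9% and 23.1%.

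The mean of the brain tissues was compared with the mean of liver and tail fat in the 16 CON libraries. Of 54 members tested, 46 passed as higher in brain and 2 as lower, where 61.8% of all genes tested passed as higher and 17.4% as lower. The median difference was 2.30 over the members and 0.85 over all genes. Under quantile normalization the all-gene median was -0.10, 43 members passed as higher and 8 as lower, and 47.2% of all calls were higher in place of 78.1%. A member could enter this test through the brain libraries alone, so the counts cover the members tested and not all 67.

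KCNA6, an axonal voltage-gated channel, had the smallest p. It had 35.5 to 44.6 TPM in hypothalamus-labelled and 31.0 to 38.2 TPM in pituitary-labelled CON libraries, was listed at 0 in every liver CON library, and had 0.01 to 0.04 TPM in tail fat. The difference was 5.21 (SE 0.11, limma adjusted p = 3.88e-17). KCNQ3 differed by 5.35, KCNA2 by 4.95, KCNC1 by 4.82 and KCNK2 by 4.10. For each of these 5 genes, every brain library was above every liver and tail fat library.

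KCNJ8 and KCNK7 passed as lower in brain. KCNJ8 had 3.07 to 5.49 TPM in hypothalamus-labelled, 4.13 to 9.66 TPM in pituitary-labelled, 7.64 to 16.4 TPM in liver and 16.3 to 24.5 TPM in tail fat CON libraries, a difference of -1.28 (SE 0.19, limma adjusted p = 9.41e-06). The 4 ranges stood in that order, with overlaps between each pair of neighbours. In the SA libraries KCNJ8 did not pass (-0.37, limma adjusted p = 0.211). There 43 of the 48 members called in CON passed in the same direction, a count that was not taken over all genes. KCNK7, a tandem-pore gene, had 1.76 to 3.36 TPM in tail fat CON and 0 to 0.26 TPM in pituitary-labelled CON libraries, with hypothalamus-labelled and liver CON libraries at 0.06 to 0.17 TPM and 0 to 0.07 TPM. It differed by -0.84 (SE 0.11, limma adjusted p = 1.37e-06). KCNK7 reached 1 TPM in tail fat alone among the CON libraries, and so entered this test through a tissue in which it was high. Its liver range did not reach above its brain ranges, so the difference rested on tail fat. KCNN2, KCNQ1, KCNK3, KCNK5, KCNK6 and KCNH8 did not pass. KCNN2 stood at 0.42 and, under quantile normalization, at -0.67 (limma adjusted p = 0.0347). It passed as higher in brain with mitochondrial and ribosomal RNA removed (0.74, limma adjusted p = 0.0485). The same held with a pseudocount of 0.1 (0.905, limma adjusted p = 0.0342) and in the SA libraries (0.67, limma adjusted p = 0.0246).

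The brain tissues were compared with each other in the same fit of 16 CON libraries. Of 54 members tested, 10 passed as higher in hypothalamus-labelled and 17 as higher in pituitary-labelled tissue, where 4.48% and 8.63% of all genes tested passed in those directions. The median difference, hypothalamus-labelled minus pituitary-labelled, was -0.23 over the members and -0.21 over all genes. Of the 27 genes, 23 passed in the same direction with mitochondrial and ribosomal RNA removed, and 23 under quantile normalization. KCNN1, KCNA3, KCNB2 and KCNJ3 were those that did not, in either setting. With mitochondrial and ribosomal RNA removed the all-gene median was -0.06 and 46.5% of all calls were higher in hypothalamus-labelled tissue, in place of 34.2%. Under quantile normalization these were -0.02 and 49.3%.

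**Figure D2:**
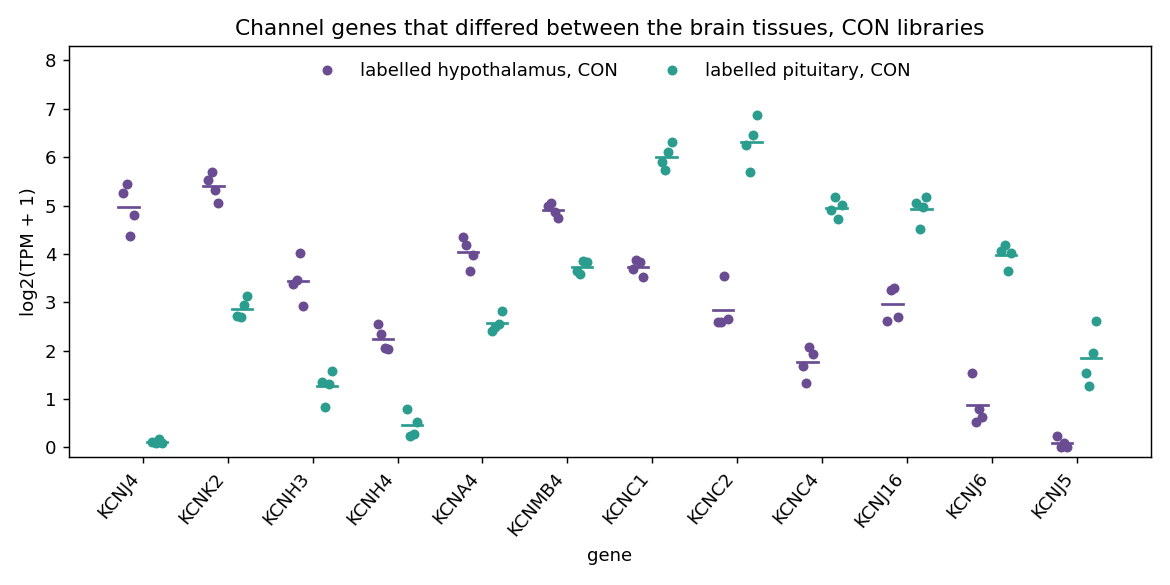
Levels of 12 channel genes on the log2(TPM + 1) scale in the 4 hypothalamus-labelled and 4 pituitary-labelled CON libraries (points, 1 per library; bars, group means). The first 6 genes were higher in hypothalamus-labelled tissue and the last 6 in pituitary-labelled tissue, with no overlap between the groups for any of the 12. The 12 were chosen among the genes that passed this contrast, and overlap was not counted over all members or all genes. KCNJ4, KCNH4 and KCNJ5 entered the test through the tissue in which they were high.

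KCNC1, KCNC2 and KCNC4 were higher in pituitary-labelled tissue. KCNC2 had 5.03, 5.02, 10.7 and 5.27 TPM in hypothalamus-labelled and 75.4, 50.6, 86.5 and 116 TPM in pituitary-labelled CON libraries 1 to 4. The groups did not overlap, and the difference was -3.47 (SE 0.25, limma adjusted p = 1.24e-08). KCNC4 had 1.53 to 3.21 TPM against 25.4 to 35.3 TPM, a difference of -3.19. KCNC1 differed by -2.28. All 3 passed with the same sign under both other scalings.

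The KCNJ genes split between the tissues. KCNJ4, an inward rectifier of forebrain neurons, had 37.2, 42.7, 19.5 and 26.9 TPM in hypothalamus-labelled CON libraries and 0.08, 0.06, 0.13 and 0.07 TPM in pituitary-labelled ones. The difference of 4.85 (SE 0.19, limma adjusted p = 1.10e-11) was the largest of the members tested in this contrast. Among the CON libraries KCNJ4 and KCNH4 reached 1 TPM only in hypothalamus-labelled ones, and KCNJ5, KCNK10, KCNK12 and KCNN4 only in pituitary-labelled ones. These 6 of the 27 entered the test through the tissue in which they were high. KCNJ4 overlaps an uncharacterised protein-coding gene in the RefSeq annotation. KCNJ6, a G protein-gated subunit, had 0.44 to 1.90 TPM against 11.6 to 17.2 TPM, a difference of -3.11. KCNJ16, which joins KCNJ10 in glia and epithelia, differed by -1.97 and KCNJ5, another G protein-gated subunit, by -1.76. KCNJ2, a strong inward rectifier, was higher in hypothalamus-labelled tissue by 1.09. KCNJ10 (-0.86, limma adjusted p = 0.0714), KCNJ8 (-0.52) and KCNJ11 (-0.06), the pore of neuronal and endocrine ATP-sensitive channels, did not pass.

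Among the other voltage-gated genes KCNA4, an inactivating axonal channel, had 11.6 to 19.3 TPM in hypothalamus-labelled and 4.31 to 6.09 TPM in pituitary-labelled CON libraries, a difference of 1.47. KCNA1 was higher in hypothalamus-labelled tissue by 1.01 and KCNQ3 by 0.96, and KCNA2 differed by -1.36. The KCNH genes that passed were KCNH3 (2.18) and KCNH4 (1.80), both of the ether-a-go-go type and higher in hypothalamus-labelled tissue. KCNH3 overlaps MCRS1 in the RefSeq annotation, and whether counting used strand is not given in the sources used here. KCND2 (0.50) and KCNH1 (0.40) did not pass.

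KCNK2 had the smallest p of the leak channels. It had 44.9, 51.0, 39.1 and 32.3 TPM in hypothalamus-labelled and 5.57, 5.45, 6.68 and 7.73 TPM in pituitary-labelled CON libraries, without overlap, a difference of 2.53 (SE 0.17, limma adjusted p = 7.70e-09). KCNK3 (-1.63), KCNK12 (-1.06) and KCNK10 (-1.003) were lower in hypothalamus-labelled tissue, and KCNK1 did not pass (-0.09, SE 0.40). Of the calcium-activated genes, KCNMB4 was higher by 1.18, and KCNMB2 (-1.19), KCNN4 (-1.04) and KCNN1 (-0.59) were lower. KCNMA1, the large-conductance pore, did not pass at -0.23 (SE 0.26), nor did KCNN2 (-0.43) or the sodium-activated KCNT1 (0.07).

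The same contrast was then taken in the SA libraries, a choice made after the CON values were seen. There 15 of the 27 genes passed in the same direction and 23 of 27 had the same sign. These counts were not taken over all genes, so they cannot set the members apart from other genes. KCNJ4 stood at 4.49, KCNK2 at 3.07, KCNC2 at -3.19, KCNC4 at -2.62 and KCNC1 at -1.88, and these passed. KCNMB4 (1.39, limma adjusted p = 0.0613) did not.

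Genes that work with the channels were read from separate lists. Of 15 auxiliary subunits tested, 4 passed in each direction. KCNIP3, a calcium-binding partner of KCND channels, had 27.3 to 38.3 TPM in hypothalamus-labelled against 3.61 to 4.37 TPM in pituitary-labelled CON libraries (2.68), and KCNIP2 differed by 1.74. KCNAB3, a cytoplasmic partner of KCNA channels, had 2.41 to 7.90 TPM against 26.3 to 56.2 TPM (-3.04), and KCNIP1 differed by -1.64. Of 6 silent subunits tested, which modify KCNB channels, 3 were higher and 2 lower in hypothalamus-labelled tissue. KCNF1 (3.10) and KCNV1 (2.83) were among the higher, and KCNS3 (-1.47) and KCNS2 (-0.93) were the lower.

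Of 8 other cation channels tested, 5 were lower in hypothalamus-labelled tissue and 0 higher, among them SCN1A, a neuronal sodium channel (-2.59), and the pacemaker channel HCN4 (-1.20). Of 7 sodium-potassium pump subunits 3 were lower, among them ATP1B2 at -1.39. Of 5 cotransporters SLC12A5 (-1.06) was lower, and of 5 partners of ATP-sensitive and calcium-activated channels LRRC55 (-1.05).

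Liver and tail fat were compared in the same fit. Of 54 members tested, 10 passed as higher in liver and 7 as higher in tail fat, where 23.3% and 20.8% of all genes tested passed. The median difference, liver minus tail fat, was -0.02 over the members and 0.01 over all genes. All 17 passed in the same direction with mitochondrial and ribosomal RNA removed and under quantile normalization. The all-gene median was then -0.37 and -0.11, and 29.7% and 43.5% of all calls were higher in liver, in place of 52.9%. In the SA libraries 8 of the 17 passed in the same direction, a count that was not taken over all genes. In CON the share of members called is near or below that of all genes. A member could enter this test through the brain libraries alone. KCNA1 and KCNC2, at 0 in every liver and tail fat library, were among the 54. Of the whole set, 12 members averaged 1 TPM or more in liver CON libraries and 10 in tail fat CON libraries. The share and the median therefore describe the members tested, and not those measured in liver or tail fat.

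KCNJ3 had 8.69, 6.62, 8.76 and 7.17 TPM in liver and 0.15, 0.22, 0.11 and 0.02 TPM in tail fat CON libraries. The groups did not overlap, and the difference was 2.96 (SE 0.26, limma adjusted p = 3.52e-08). KCNK1 (2.65), KCNN2 (2.54), KCNK5 (2.34), KCNMB4 (1.80) and KCND2 (1.79) were also higher in liver. KCND2, the pore of a transient outward current, was listed at 0 in every tail fat library of both diets. KCNK3 had 0.04 to 0.13 TPM in liver and 8.50, 18.7, 1.58 and 4.45 TPM in tail fat, a difference of -2.72. KCNK7 (-1.87), KCND3 (-1.17) and KCNJ8 (-0.92) were also higher in tail fat. Among the CON libraries KCNK7 reached 1 TPM in tail fat alone, and so entered the test through the tissue in which it was high. KCNQ1 did not pass at -0.55.

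In the SA libraries KCNJ3 (1.99), KCNK5 (2.06), KCNK3 (-3.58), KCNK7 (-1.63) and KCNJ8 (-1.12) passed again. KCNK1 (0.63, limma adjusted p = 0.0869), KCNN2 (0.55, limma adjusted p = 0.246) and KCNMB4 (0.77, limma adjusted p = 0.171) did not, and KCNJ10 went from 1.24 to -0.19. KCNQ1 went from -0.55 to 2.15 and passed as higher in liver (limma adjusted p = 3.25e-05), with 4.41, 21.7, 5.82 and 5.70 TPM in SA livers and 1.07, 1.33, 0.72 and 0.73 TPM in SA tail fat.

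Between diets, liver was the tissue in which channel genes passed. Of 10 members tested, 4 passed as lower in SA and none as higher, where 59.1% of all genes tested passed as lower and 5.21% as higher. The median change was -0.88 over the members and -0.83 over all genes. With mitochondrial and ribosomal RNA removed the all-gene median was -4e-04, and 53% of all calls were higher in SA in place of 8.1%. None of the 4 genes passed then. Under quantile normalization the all-gene median was -0.09, 43.6% of calls were higher, and 1 of the 4, KCNK1, passed. The summed level of all 67 members was 73.2 ± 17.6 TPM in CON and 44.6 ± 13.9 TPM in SA (SD, n = 4), and with mitochondrial and ribosomal RNA removed it was higher in SA, at 98.6 and 130 TPM (means).

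**Figure D3:**
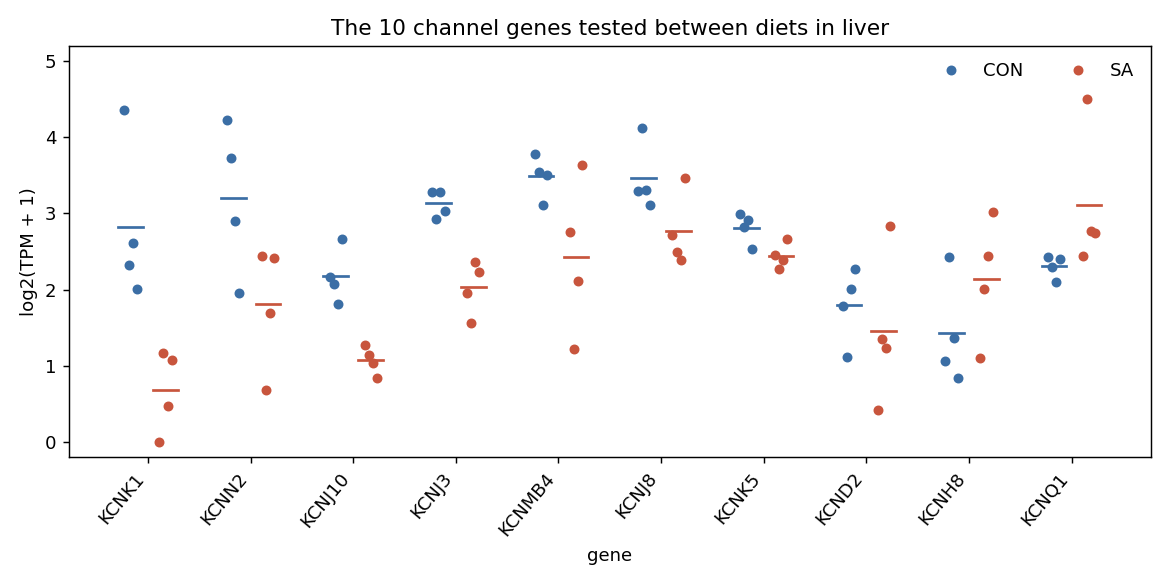
Levels on the log2(TPM + 1) scale of the 10 channel genes tested between diets in liver, in the 4 CON and 4 SA libraries (points; bars, group means). KCNK1, KCNJ10 and KCNJ3 are lower in every SA than in every CON library, KCNQ1 is higher in every SA than in every CON library (4.41 to 21.7 against 3.30 to 4.39 TPM), and KCNH8 has a higher mean in SA.

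KCNK1 had 19.5, 4.00, 5.09 and 3.03 TPM in liver CON libraries 1 to 4 and 0, 1.25, 0.38 and 1.10 TPM in SA libraries 1 to 4. Every SA library was below every CON library, with CON 1 far above the rest. The change was -2.15 (SE 0.49, limma adjusted p = 0.00419), and -1.64 without CON 1. It was -1.80 (limma adjusted p = 0.0638) with mitochondrial and ribosomal RNA removed and -1.56 (limma adjusted p = 0.0387) under quantile normalization.

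KCNJ10 had 3.49, 3.22, 2.50 and 5.32 TPM in CON and 1.41, 1.20, 1.05 and 0.79 TPM in SA livers, a change of -1.11 (SE 0.21, limma adjusted p = 0.00122). KCNJ3 had 8.69, 6.62, 8.76 and 7.17 TPM in CON and 2.89, 1.96, 4.16 and 3.70 TPM in SA, a change of -1.10 (SE 0.21, limma adjusted p = 0.00147). For both genes every SA library was below every CON library. With mitochondrial and ribosomal RNA removed the changes were -0.47 (limma adjusted p = 0.273) for KCNJ10 and -0.24 (limma adjusted p = 0.474) for KCNJ3. KCNN2 had 17.8, 12.3, 6.44 and 2.89 TPM in CON and 4.45, 0.60, 2.23 and 4.33 TPM in SA, with overlapping groups. Its change of -1.40 (SE 0.54, limma adjusted p = 0.0454) no longer passed when CON 1, CON 2, CON 3, SA 2 or SA 3 was left out (limma adjusted p from 0.0628 to 0.113). Nor did it pass with the replicate block (limma adjusted p = 0.0561), a pseudocount of 0.1 (limma adjusted p = 0.0544) or no filter on low values (limma adjusted p = 0.0833), or under either other scaling.

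KCNMB4 (-1.06, limma adjusted p = 0.0605), KCNJ8 (-0.70, limma adjusted p = 0.0655), KCNK5 (-0.37) and KCND2 (-0.34) did not pass. KCNQ1 stood at 0.81 (SE 0.40, limma adjusted p = 0.104) and KCNH8, an ether-a-go-go type channel, at 0.72 (limma adjusted p = 0.182). KCNQ1 had 4.39, 3.90, 3.30 and 4.26 TPM in CON and 4.41, 21.7, 5.82 and 5.70 TPM in SA, with every SA library above every CON library and SA 2 far above the other 7, and stood at 0.34 without it. KCNH8 had 1.09, 4.36, 1.58 and 0.79 TPM and 1.15, 3.03, 4.42 and 7.12 TPM. With mitochondrial and ribosomal RNA removed both passed as higher in SA, KCNQ1 by 1.84 (limma adjusted p = 0.0437) and KCNH8 by 1.69 (limma adjusted p = 0.0436). They also passed under quantile normalization, by 1.66 and 1.38.

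Other members were too low in liver to be tested. KCNMA1 had 1.74, 0.80, 0.89 and 1.29 TPM in CON and 0.10, 0.06, 0.21 and 0.06 TPM in SA livers. KCNT2, a sodium-activated channel, had 0.43, 4.73, 1.43 and 1.26 TPM in CON and 0.07, 0.05, 0.06 and 0.37 TPM in SA. Neither gene's groups overlapped. With no filter on low values 9 of 46 members passed in liver, all as lower in SA, where 34.6% of all genes tested passed as lower and 3.17% as higher. Among the 9 were KCNMA1 (-0.96), KCNT2 (-1.20), KCNK6 (-0.69) and KCNN3 (-0.58). KCNMA1 also passed, at -0.97 (limma adjusted p = 0.0109), with mitochondrial and ribosomal RNA removed. In that setting it reached 1 TPM in the CON libraries alone, and so entered the test through the group in which it was high.

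The summed levels of 7 of 16 cell type marker lists did not overlap between the diets in liver, and all 7 were lower in SA. Among all genes tested in liver 59.1% passed as lower in SA, and the marker sums were not repeated under the other scalings. The 7 hepatocyte markers, none at 0 throughout a group, summed to 72110 to 96303 TPM in CON and 6650 to 29028 TPM in SA. The 6 endothelial markers summed to 84.9 to 115 and 11.0 to 20.6 TPM, and the 6 microglia and macrophage markers to 418 to 696 and 135 to 377 TPM. The 6 T and NK cell markers summed to 17.04 to 46.59 and 4.55 to 13.9 TPM. The other 3 were the lists of adipocytes (10.6 to 15.4 and 4.92 to 9.68 TPM), oligodendrocytes (4.84 to 7.58 and 1.86 to 2.29 TPM) and the choroid plexus and ependyma (7787 to 11013 and 802 to 6243 TPM). This last list shares TTR with the hepatocyte list, and 1 of its 3 genes found averaged 1 TPM or more in CON livers. MOBP and ADIPOQ were at 0 throughout liver CON, and LEP was at 0 throughout both diets. The part of the 7 lists in the channel differences was not tested.

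Of the genes that work with the channels, all 4 pump subunits tested in liver were lower in SA, where 59.1% of all genes tested were, including ATP1B1 at -2.10 (46.5 ± 10.6 TPM in CON and 10.8 ± 5.43 TPM in SA, SD, n = 4). All 3 cotransporters tested were lower, including SLC12A7 (-0.85), as were CALM2 (-1.51) and CALM3 (-0.93), the calmodulin genes tested. Of 5 auxiliary subunits 1 was lower, CNTNAP2 (-2.05), and the 1 other cation channel tested, HCN2, was higher by 1.58. With mitochondrial and ribosomal RNA removed 2 of the 4 pump subunits, none of the 4 cotransporters then tested and neither calmodulin gene passed. ATP1B1 stood at -1.11 (limma adjusted p = 0.0338), CNTNAP2 at -1.76 and HCN2 at 2.67, and these passed, while SLC12A7 stood at 0.002 and CALM3 at 0.08.

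In tail fat none of 8 members tested passed between diets, where 0.277% of all genes tested passed as higher and 0.42% as lower in SA. The 1 member with an unadjusted p under 0.05 was KCNQ1. It had 12.4, 7.36, 3.37 and 4.60 TPM in CON libraries 1 to 4 and 1.07, 1.33, 0.72 and 0.73 TPM in SA libraries 1 to 4. Every SA library was below every CON library, and the change was -1.89 (SE 0.43, limma adjusted p = 0.0571).

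KCNQ1 passed in other settings. The change was -2.48 (limma adjusted p = 0.00719) with mitochondrial and ribosomal RNA removed, where the all-gene median was -0.40 and 12.4% of all calls were higher in place of 39.7%. It was -1.70 (limma adjusted p = 0.0362) under quantile normalization and -1.83 (limma adjusted p = 0.0302) without CON 2. Over all genes 1374, 415 and 261 passed in these settings, in that order. In the main fit 31 genes had passed as higher and 47 as lower. KCNQ1 did not pass with no filter on low values (limma adjusted p = 0.177) or with a pseudocount of 0.1 (limma adjusted p = 0.0533). Nor did it pass when any one of the other 7 libraries was left out (limma adjusted p from 0.0665 to 0.244). The 6 adipocyte markers summed to 11013 to 74476 TPM in CON and 10749 to 60464 TPM in SA, with overlapping ranges. Of the 16 marker lists 1, that of oligodendrocytes, did not overlap between the diets in tail fat. It summed to 5.50 to 9.62 TPM in CON and 1.36 to 4.10 TPM in SA. Of its 6 genes found, 1 averaged 1 TPM or more in CON and 1 in SA. MAG was at 0 throughout CON and MOBP throughout SA. The part of this list in KCNQ1 was not tested.

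The other tail fat members were not separated by diet. KCNK3 had 8.50, 18.7, 1.58 and 4.45 TPM in CON and 24.8, 10.5, 8.29 and 6.39 TPM in SA, a change of 0.74 (SE 0.61). KCNJ8 had 16.3 to 24.5 TPM in CON and 6.86 to 29.5 TPM in SA, a change of -0.49 (SE 0.50), and the SA range enclosed the CON range. KCND3 stood at -0.50, KCNJ10 at 0.32 and KCNK7 at 0.09. Of 6 auxiliary subunits tested 1 passed, LGI1, a secreted protein that binds ADAM22 at synapses and axons, with 3.24 ± 0.996 TPM in CON and 0.103 ± 0.117 TPM in SA (-1.91, limma adjusted p = 0.0171). LGI1 reached 1 TPM in the CON libraries alone and so entered the test through the group in which it was high.

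**Figure D4:**
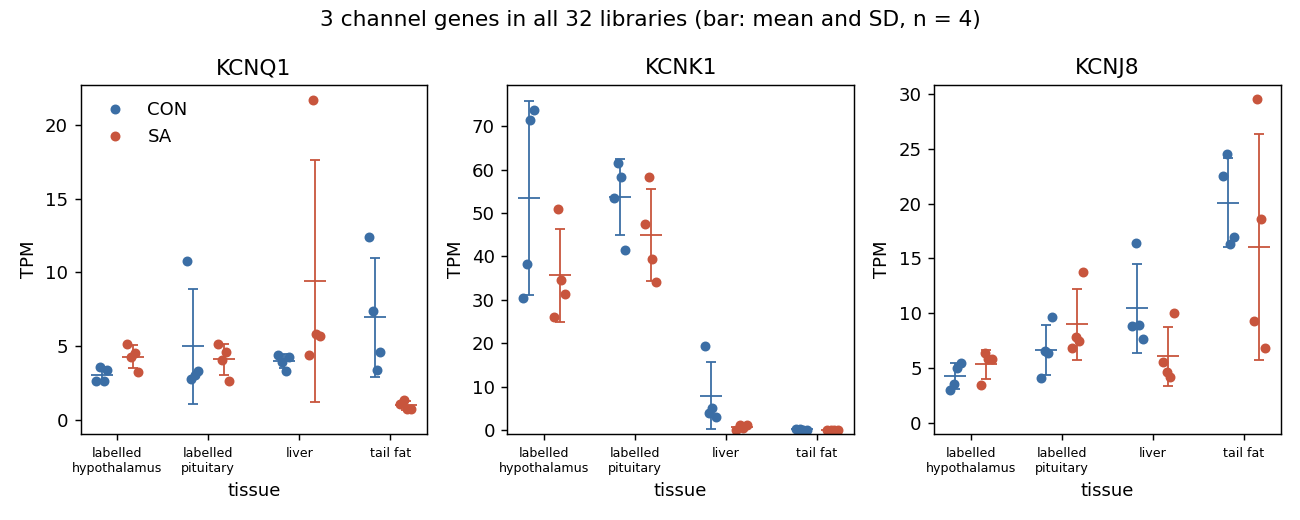
TPM of KCNQ1, KCNK1 and KCNJ8 in all 32 libraries (points, 1 per library; bars, mean and SD, n = 4), by tissue and diet on a linear axis with its own range in each panel. KCNQ1 is lower in every SA than in every CON tail fat library and reaches 21.7 TPM in 1 SA liver, and KCNK1 is at most 0.22 TPM in tail fat.

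In hypothalamus-labelled tissue none of 47 members passed between diets, and 0% of all genes tested did. At an unadjusted p under 0.05 there were 4 members, and 493 of 14126 genes. The median change was 0.01 over the members and 0.02 over all genes. The 4 members were KCNA6 (-0.65), KCND3 (0.47), KCNQ1 (0.38) and KCNN2 (0.32), each with limma adjusted p = 0.947.

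KCNA6 had 35.5, 42.4, 44.6 and 36.6 TPM in CON and 24.6, 39.1, 18.2 and 21.5 TPM in SA, so that SA 2 lay within the CON range and the other 3 SA libraries below it. KCNJ10 had 31.4, 32.3, 69.5 and 65.1 TPM in CON and 27.1, 38.9, 37.1 and 33.9 TPM in SA. KCNK1 had 30.5, 38.2, 71.4 and 73.7 TPM in CON and 26.0, 50.9, 34.6 and 31.3 TPM in SA. For KCNJ10 and KCNK1, CON 3 and CON 4 were above every other library of the tissue. The 6 oligodendrocyte markers found summed to 5379, 4842, 22981 and 17674 TPM in CON libraries 1 to 4 and to 2051 to 6678 TPM in SA, with none at 0 throughout a group. CON 3 and CON 4 were the highest there as well, and the part of this in the channel values was not tested.

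The leading neuronal members had overlapping values in both diets. KCNQ3 had 57.8 ± 10.5 TPM in CON and 60.7 ± 12.3 TPM in SA (SD, n = 4). The changes were -0.12 for KCNA1, -0.04 for KCNA2, -0.10 for KCNC1, 0.12 for KCND2, 0.06 for KCNK2 and 0.16 for KCNMA1, with standard errors from 0.11 to 0.21. A p that misses the threshold does not show equal levels.

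In pituitary-labelled tissue none of 52 members passed between diets, and 0% of all genes tested did. One member had an unadjusted p under 0.05, beside 218 of 14472 genes. Of the 52, 47 were lower in SA, and the median change was -0.37 over the members and -0.27 over all genes. SA 4 had a summed channel level of 276 TPM, against 635 to 966 TPM in the other SA libraries, and 34 members at 1 TPM or more, against 48 to 52. Its neuron markers summed to 1162 TPM, against 2339 to 3863 TPM. Without SA 4, 32 of the 52 were lower and the medians were -0.05 and -0.02. With all libraries and mitochondrial and ribosomal RNA removed the all-gene median was -0.07, and it was -0.02 under quantile normalization.

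**Figure D5:**
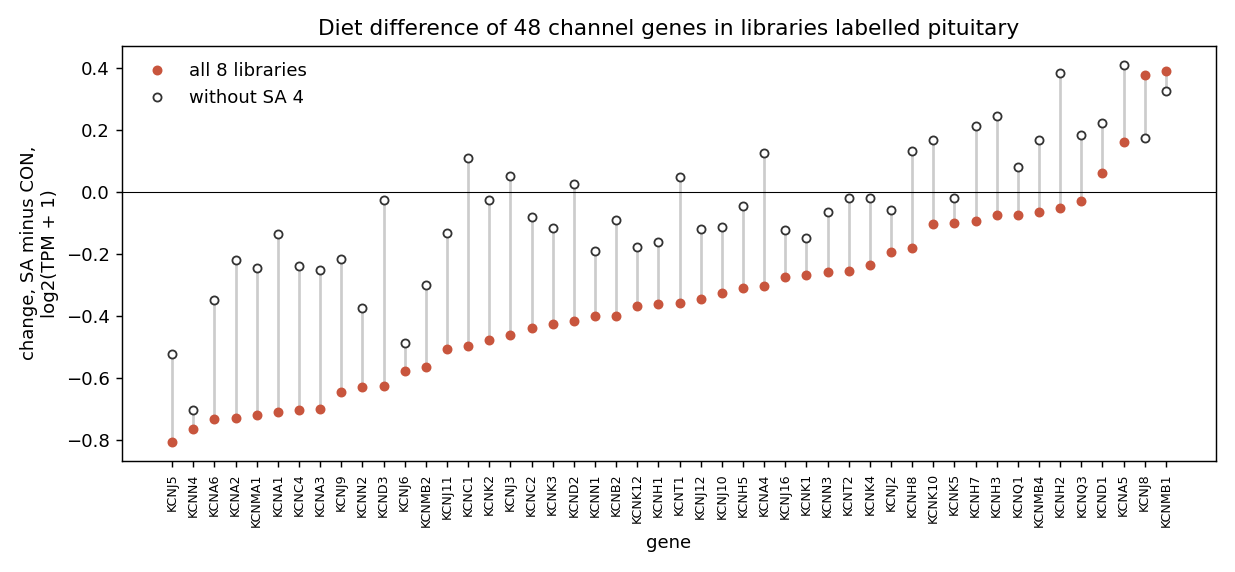
Change between diets (SA minus CON, vertical axis, log2 scale of TPM + 1) for 48 of the 52 channel genes tested in pituitary-labelled libraries, with all 8 libraries (filled points) and without SA 4 (open points). With all libraries 44 of the genes drawn lie below 0, and without SA 4, 31 do.

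The low values of SA 4 were not shared by all members. KCNA1 had 1.12 TPM in SA 4 against 7.09 to 12.6 TPM in the other SA libraries and KCNK2 1.06 against 4.87 to 7.26 TPM. KCNJ8 had 13.8 TPM in SA 4 against 6.90 to 7.88 TPM. The 6 smooth muscle and pericyte markers summed to 283 TPM in SA 4 against 131 to 236 TPM in the other SA libraries and 62.2 to 203 TPM in CON, with none at 0 throughout a group. The part of this in KCNJ8 was not tested.

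KCNN4, the intermediate-conductance calcium-activated channel of blood and immune cells, had the smallest p. It had 2.33, 1.97, 1.08 and 1.28 TPM in CON and 0.41, 0.66, 0.77 and 0.36 TPM in SA. Every SA library was below every CON library, and the change was -0.76 (SE 0.25, limma adjusted p = 0.747), and -0.70 without SA 4. All 4 CON libraries and no SA library reached 1 TPM, so that KCNN4 entered the test through the group in which it was high, and it was not tested when any CON library was left out. KCNJ5 stood at -0.81 and KCNA6 at -0.73 with all libraries, and at -0.52 and -0.35 without SA 4. KCNMB1, a smooth muscle subunit of the large-conductance channel, which overlaps KCNIP1 in the RefSeq annotation, stood at 0.39 and KCNJ8 at 0.38. No gene of the lists that work with the channels passed between diets in either brain tissue.

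Whether the diet difference varied between the 4 tissues was tested as a diet-by-tissue interaction over all 32 libraries. Of 55 members tested 5 passed, where 27% of all genes tested passed. KCNQ1 had the smallest p (F = 11.1 on 3 degrees of freedom, limma adjusted p = 9.06e-04). Its changes were 0.38 in hypothalamus-labelled tissue, -0.07 in pituitary-labelled tissue, 0.81 in liver and -1.89 in tail fat. KCNK1 (limma adjusted p = 0.00812) stood at -0.51, -0.27 and -2.15 in the first 3 tissues, and was under 1 TPM in every tail fat library.

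KCNN4 (limma adjusted p = 0.00550) was above 1 TPM in the pituitary-labelled CON libraries and in no other library, so that it entered this test too through the group in which it was high. KCNN2 (limma adjusted p = 0.0187) stood at 0.32 in hypothalamus-labelled tissue, -0.63 in pituitary-labelled tissue and -1.40 in liver. KCNT2 (limma adjusted p = 0.0241) was the fifth, with the liver values given above. KCNN2 did not pass without liver CON 1 or SA 2, and KCNT2 did not pass without liver CON 2, SA 1, SA 2 or SA 3. KCNK1 and KCNN2 did not pass with mitochondrial and ribosomal RNA removed (limma adjusted p = 0.0609 and 0.225) or under quantile normalization (limma adjusted p = 0.0508 and 0.0843).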

How the data were processed

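Total RNA from 32 sheep tissue libraries was extracted with TRIzol and sequenced as stranded oligo(dT) libraries on a NovaSeq, per the labels' protocols. The submitters' processing notes name fastp, HISAT2 and RSEM, with no version, genome build, annotation or strand setting stated. The authors deposited TPM, a length-scaled share of each library's transcripts, with 2 decimals for 30722 genes, without counts, so the depth behind each value is unknown. The authors' deposited group means were not used.

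Libraries were grouped by the labels. Differences were fitted with limma 3.58.1 in R 4.3.3 on log2(TPM + 1), with trend and robust moderation, keeping genes that reached 1 TPM in 4 or more libraries of the fit. Each diet contrast was fitted within its tissue. The 3 tissue contrasts were fitted together in the 16 CON libraries and so share libraries, and the interaction was an F-test over all 32. The p-values were adjusted by Benjamini-Hochberg over all genes tested. The code was tested on simulated data. The alternatives were a pseudocount of 0.1, no filter on low values, removal of 37 mitochondrial and 44 ribosomal RNA genes with rescaling, quantile normalization, a replicate block, one fit of all 32 libraries for the diet contrasts, and leaving out each library in turn (for the interaction, liver libraries alone). The tissue contrasts in SA libraries, and tail fat without CON 2 and SA 1, were chosen after seeing the data.

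The members and the gene lists were chosen with earlier results of these data known. Genes named are a panel of 18 members whatever their result, up to 6 members of smallest p in each direction per comparison (3 where fewer than 5 passed), the 5 highest members of each tissue in CON, and up to 2 genes of each list of partners in each direction. Further members were named after their values were seen, to complete a family or a small count. Some genes that these rules name are not reported here. All 67 members were found in the RefSeq gene table (ARS-UI_Ramb_v3.0), where 21 overlap another gene and 5 a protein-coding one. No sequences are shown.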

Additional observations from a re-analysis of the deposited data

Results flagged for a closer look

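In 102 groups of 4 libraries, 4 had a library far from the other 3, and chance alone gives about 1 in 20. KCNJ8 had 13.78 TPM in pituitary-labelled SA 4 against 6.90 to 7.88 TPM in the other SA libraries. KCNJ8 also had 16.43 TPM in liver CON 2 against 7.64 to 8.93 TPM. KCNK1 had 19.47 TPM in liver CON 1 against 3.03 to 5.09 TPM. KCNQ1 had 21.68 TPM in liver SA 2 against 4.41 to 5.82 TPM, and that library had the highest mitochondrial share of the liver libraries, 71.0%.

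The diet difference varied between tissues, by the limma interaction test, for 5 of 55 members tested, where 27% of all genes tested passed. The adjusted p was 0.000906 for KCNQ1, 0.0055 for KCNN4, 0.00812 for KCNK1, 0.0187 for KCNN2 and 0.0241 for KCNT2. KCNN4 entered the test through the pituitary-labelled CON libraries alone, the group in which it was high. KCNK1 and KCNN2 did not pass with mitochondrial and ribosomal RNA removed or under quantile normalization.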

How the results depend on the processing

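The number of members that passed was within 1.5 times the value in the report in all but the following cases. In liver between diets it was 9 in place of 4 with no filter on low values. In tail fat between diets it was 3 in place of 0 with mitochondrial and ribosomal RNA removed, and 1 under quantile normalization, with the replicate block, in 1 fit of 32 libraries, and with CON 2 and SA 1 both left out. Over all genes 1374, 415, 413, 2014 and 346 passed in these settings, in that order, in place of 31 higher and 47 lower. For the interaction it was 9 in place of 5 with a pseudocount of 0.1 and 10 under quantile normalization. For liver against tail fat it was 10 in place of 17 in SA libraries. A similar count need not hold the same genes. In liver between diets 2 members passed as higher in SA and 1 as lower with mitochondrial and ribosomal RNA removed. Under quantile normalization these were also 2 and 1, in place of 0 and 4. Of the 4 genes called in the report, 0 and 1 passed in those settings. Leaving out 1 library gave 0 to 0 in both brain tissues between diets, 3 to 6 in liver, 0 to 1 in tail fat (1 without CON 2), 20 to 29 for hypothalamus-labelled against pituitary-labelled tissue, 15 to 18 for liver against tail fat, 44 to 49 for brain, and 3 to 6 for the interaction (3 without liver SA 2). With the replicate number as a block the counts were 0, 0, 3, 1, 25, 17, 48 and 5, in the order of the 4 diet contrasts (hypothalamus-labelled, pituitary-labelled, liver, tail fat), the 3 tissue contrasts (hypothalamus-labelled against pituitary-labelled, liver against tail fat, brain) and the interaction. Same-numbered libraries did not deviate together (correlations from -0.342 to 0.289, over 0.1 in 4 of 16 diet pairs and 1 of 24 tissue pairs). Tissues of 1 sheep need not deviate together, so these values cannot decide whether same-numbered libraries share a sheep. The labels do not say.

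Of the members reported that changed sign in a setting with all libraries kept, 4 were past the threshold there: KCNN2 (-0.67), KCNK3 (-0.58) and KCNK6 (-0.81) for brain under quantile normalization, and KCNQ1 (2.15) for liver against tail fat in SA libraries. The other changes of sign below were not past it. With mitochondrial and ribosomal RNA removed, KCNA2 (0.005) in hypothalamus-labelled tissue, KCNQ3 (0.20) in pituitary-labelled tissue, KCND2 (0.38) and KCNJ8 (0.26) in liver and KCNK7 (-0.18) in tail fat did so between diets, KCNJ11 (0.13) and KCNK1 (0.10) between the brain tissues and KCNJ11 (-0.067) between liver and tail fat. Under quantile normalization these were KCNK1 (0.023) and KCNQ3 (0.26) in pituitary-labelled tissue, KCND2 (0.29) and KCNJ8 (0.13) in liver, KCNJ11 (0.16) and KCNK1 (0.09) between the brain tissues, and KCNH1 (0.17) and KCNJ11 (-0.033) between liver and tail fat. KCNH1 stood at 0.18 there with a pseudocount of 0.1. In SA libraries KCNJ11 (0.37), KCNMA1 (0.65) and KCNN2 (0.52) changed sign between the brain tissues, and KCNH1 (0.17), KCNJ10 (-0.19, a gene that had passed in CON), KCNK2 (0.038) and KCNMA1 (-0.60) between liver and tail fat. Leaving out 1 library gave KCNA1 -0.259 to 0.031, KCNA2 -0.140 to 0.022, KCNK2 -0.054 to 0.161 and KCNQ3 -0.062 to 0.157 between diets in hypothalamus-labelled tissue. In pituitary-labelled tissue it gave KCNA5 -0.16 to 0.41, KCNQ3 -0.17 to 0.18, KCNC1 -0.84 to 0.11, KCND2 -0.823 to 0.027 and KCNT1 -0.565 to 0.048, the last 3 changing sign without SA 4. It gave KCND2 -0.80 to 0.01 in liver and KCNK7 -0.057 to 0.197 in tail fat. It gave KCNK1 -0.28 to 0.14, KCNJ11 -0.140 to 0.034 and KCNT1 -0.006 to 0.16 between the brain tissues, and KCNH1 -0.079 to 0.113 and KCNJ11 -0.006 to 0.026 between liver and tail fat. The cause was not tested. The depth behind the TPM is unknown, so the precision of low values cannot be given.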
